A study of Mus musculus with 8 samples.

Results

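Heat shock proteins and chaperones were followed through the epidermis of aged mice with a set of 10 genes, out of the 49315 genes counted. The members were Hsph1, Hspa1a, Hspa1b, Hspa8, Dnajb1, Hsp90aa1, Hspb1, Hspd1, Hspe1 and Bag3. They were chosen by name with their values already known, both in the comparison of Tgfa knockout (KO) with wild type (WT) and in the comparison of KO libraries whose names end in br with those ending in bl. Their values in both comparisons are therefore given as a description and carry no test.

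RNA was sequenced from isolated back skin epidermis, labelled as keratinocytes, of mice labelled 22 months old. There were 5 Tgfa KO libraries and 3 WT libraries. KO replicates 1 and 2 and all 3 WT replicates have names ending in br, and KO replicates 3, 4 and 5 have names ending in bl. What the endings mean, how the Tgfa allele was made, the strain, and whether each library came from its own animal are left unsaid in the sources used here. P-values below measure the spread between these libraries.

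Tgfa itself, the growth factor gene targeted in the KO, was at 132, 32.9, 43.3, 36.1 and 70.1 CPM (read counts scaled to library size) in KO replicates 1 to 5 and at 92.4, 84.8 and 111 CPM in WT replicates 1 to 3. The library labelled KO replicate 1 thus held more Tgfa than any WT library, while the other 4 KO libraries lay below all WT libraries. The log2 fold change was -0.61 (SE 0.43), with an edgeR adjusted p of 0.899. Which exons the allele removes is not known here, so reads from a remaining part of the gene cannot be told apart from intact transcript. Total counts ran from 5313552 to 17417500 in KO libraries and from 12968728 to 18292303 in WT libraries, with KO replicate 2 the lowest. The nuclear RNA Malat1 took 4.88% of counts in the library labelled KO replicate 1 and 6.61% in WT replicate 3, against 1.34% to 1.84% in the other libraries. Gm10800, a predicted gene, took 12.4% of the counts of KO replicate 2. The keratinocyte markers Krt5, Krt14, Krt1, Krt10, Krt15, Trp63 and Dsg3 had counts in every library, and summed to 9665 to 24030 CPM in KO libraries and 7854 to 18920 CPM in WT libraries.

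Heat shock proteins are chaperones: they hold unfolded proteins, help them fold, or pass them on for degradation. HSP70 proteins bind and release clients in a cycle driven by ATP, J proteins of the HSP40 family deliver clients and start ATP hydrolysis, and HSP110 proteins and BAG proteins help HSP70 exchange its nucleotide. Under heat or other protein damage, the transcription factor HSF1 is freed from chaperones, forms trimers and binds heat shock elements, which are inverted repeats of a short GAA unit, upstream of these genes. In skin, the small heat shock protein HSP27, product of Hspb1, is known for its abundance in differentiating keratinocytes.

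Per kilobase of exon, Hspb1 had the highest level of the members in both genotypes, at 858 ± 531 CPM per kb in KO libraries (SD, n = 5) and 1217 ± 223 CPM per kb in WT libraries (SD, n = 3). Hspa1b and Hspa1a came next, then Hspa8, Dnajb1 and Hsp90aa1, all with means between 104 and 537 CPM per kb in KO libraries and between 119 and 414 CPM per kb in WT libraries. Hspe1, Bag3, Hsph1 and Hspd1 followed in this order, and Hspd1 was lowest, at 15.0 ± 1.5 CPM per kb in KO libraries and 14.2 ± 1.95 CPM per kb in WT libraries (SD). In KO libraries no neighbours in this order differed by more than the larger of their SDs. In WT libraries Hspb1 from Hspa1b, Hspa1b from Hspa1a, and Hsp90aa1 from Hspe1 did. The 10 members together took 0.948%, 0.543%, 0.283%, 0.262% and 0.253% of all counts in KO replicates 1 to 5, and 0.341%, 0.438% and 0.677% in WT replicates 1 to 3. The share was thus high in the library labelled KO replicate 1, in KO replicate 2 and in WT replicate 3, and the genotypes overlapped.

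**Figure D1:**
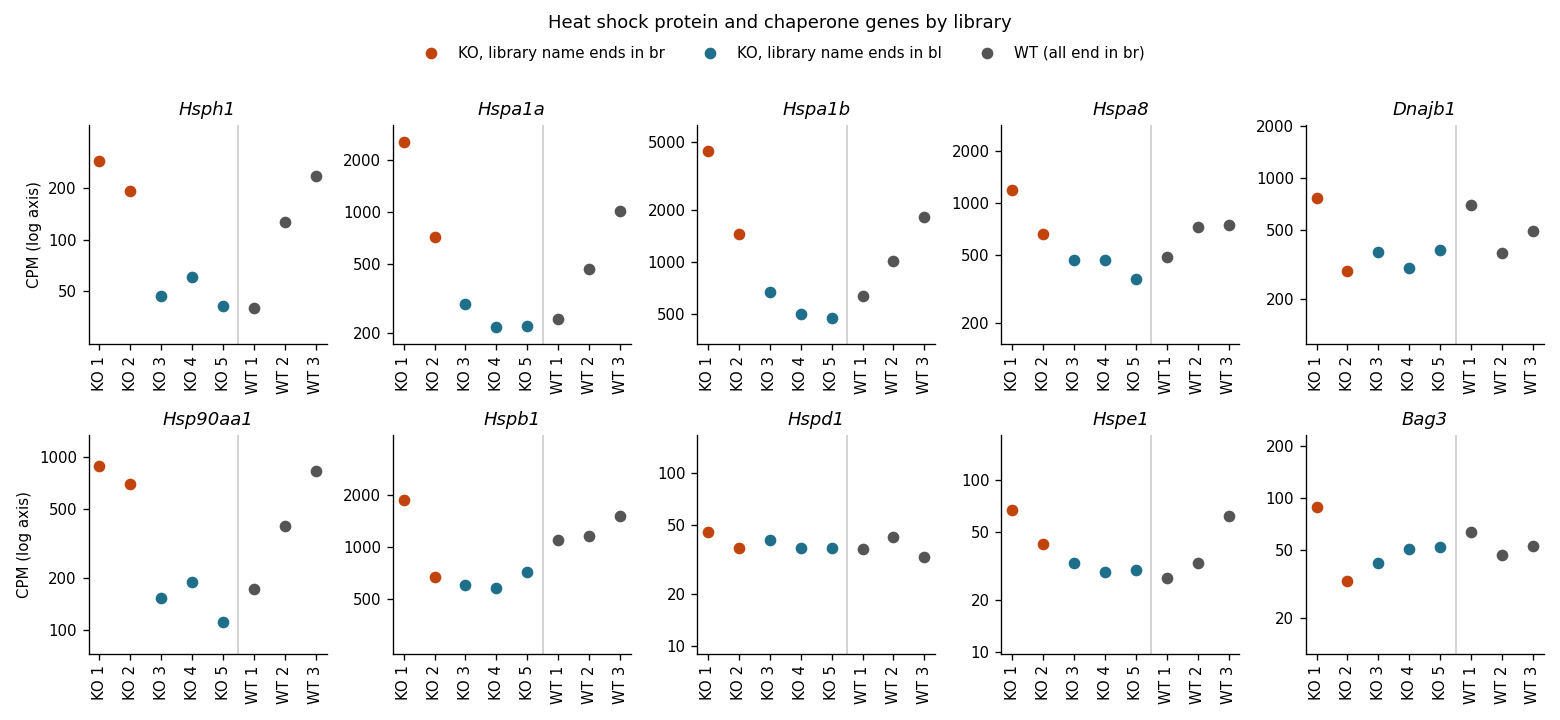
CPM of each of the 10 members on log axes, 1 point per library, for KO libraries ending in br, KO libraries ending in bl and WT libraries. Hsph1, Hspa1a, Hspa1b and Hsp90aa1 are high in KO replicates 1 and 2 and WT replicate 3, while Hspd1 stays between 32.9 and 46.1 CPM in all 8 libraries.

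The members with the widest range were the inducible HSP70 genes, the HSP110 gene and the inducible HSP90 gene. Hspa1a and Hspa1b encode nearly identical stress-inducible HSP70 proteins from neighbouring genes. Hspa1a was at 2562, 716, 296, 215 and 218 CPM in KO replicates 1 to 5, against 242, 472 and 1012 CPM in WT replicates 1 to 3. Hspa1b was at 4412, 1458, 671, 502 and 476 CPM in the KO libraries, against 636, 1017 and 1831 CPM in the WT libraries. Both genes put the library labelled KO replicate 1 highest and WT replicate 3 next, and KO replicates 3 to 5 near WT replicate 1, so the genotypes overlapped. The highest library exceeded the lowest 11.9-fold for Hspa1a and 9.27-fold for Hspa1b. Of the 150-base stretches of the 2967-base Hspa1a transcript, 38.1% also occur in Hspa1b, so the split of reads between both genes is uncertain. Hspa1a also overlaps Gm20481 on the opposite strand.

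Hsph1, the HSP110 gene, was at 285, 190.1, 47.2, 60.9 and 41.1 CPM in KO replicates 1 to 5, against 40.0, 126 and 235 CPM in WT replicates 1 to 3. Hsp90aa1, the stress-inducible cytosolic HSP90 gene, was at 887, 697, 154, 190.05 and 110.2 CPM in the KO libraries, against 171, 400.4 and 829 CPM in the WT libraries. For both genes KO replicate 2 lay well above KO replicates 3 to 5 and near WT replicate 3, and each genotype spanned low and high libraries. The coefficient of variation was 86.9% in KO and 73.2% in WT libraries for Hsph1, and 87.9% in KO and 71.5% in WT libraries for Hsp90aa1.

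Hspa8, the constitutive HSP70 gene, moved over a narrower range, with 1181, 660.4, 462, 467 and 361 CPM in KO replicates 1 to 5, against 482, 721 and 741 CPM in WT replicates 1 to 3. KO replicates 3 to 5 lay below all WT libraries, while both KO libraries ending in br lay among or above them. The gene holds 3 small nucleolar RNAs, Snord14c, Snord14d and Snord14e, in its introns. Dnajb1, an inducible J protein gene and partner of HSP70, was at 763, 290, 374, 302 and 384 CPM in the KO libraries, against 697, 370 and 496 CPM in the WT libraries. Here KO replicate 2 was the lowest of all 8 libraries and WT replicate 1 the highest of the WT libraries, whereas for Hsph1 WT replicate 1 was the lowest of all.

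Hspb1 was at 1859, 669, 599, 577 and 717 CPM in KO replicates 1 to 5, against 1094, 1151 and 1519 CPM in WT replicates 1 to 3. KO replicates 2 to 5 all lay below every WT library, and the library labelled KO replicate 1 lay above them all. Bag3, which encodes a nucleotide exchange factor that links HSP70 to autophagy of its clients, was at 88.5, 32.7, 41.7, 50.5 and 52.1 CPM in the KO libraries, against 63.0, 46.8 and 52.4 CPM in the WT libraries. Apart from the library labelled KO replicate 1, Bag3 stayed within 32.7 to 63.0 CPM, with KO replicate 2 lowest. Bag3 overlaps 2610306O10Rik on its own strand, and reads of both cannot be told apart.

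The mitochondrial chaperonin is made of HSP60, encoded by Hspd1, and its lid HSP10, encoded by Hspe1. Hspd1 was at 46.1, 37.2, 41.1, 36.9 and 37.2 CPM in KO replicates 1 to 5, against 36.5, 43.1 and 32.9 CPM in WT replicates 1 to 3. It was the steadiest member, its highest library being 1.40-fold its lowest. Hspe1 was at 66.9, 42.2, 33.0, 29.4 and 30.2 CPM in the KO libraries, against 26.8, 32.8 and 61.5 CPM in the WT libraries, a pattern with the same 3 high libraries as Hsph1. Both genes lie head to head on chromosome 1, with start sites 95 bases apart in RefSeq and gene ends that overlap by 112 bases in the annotation used for counting. Their processed pseudogenes have near copies of their sequence, and Hspe1-ps3 had at most 64 counts in a library and Hspd1-ps3 at most 14.

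**Figure D2:**
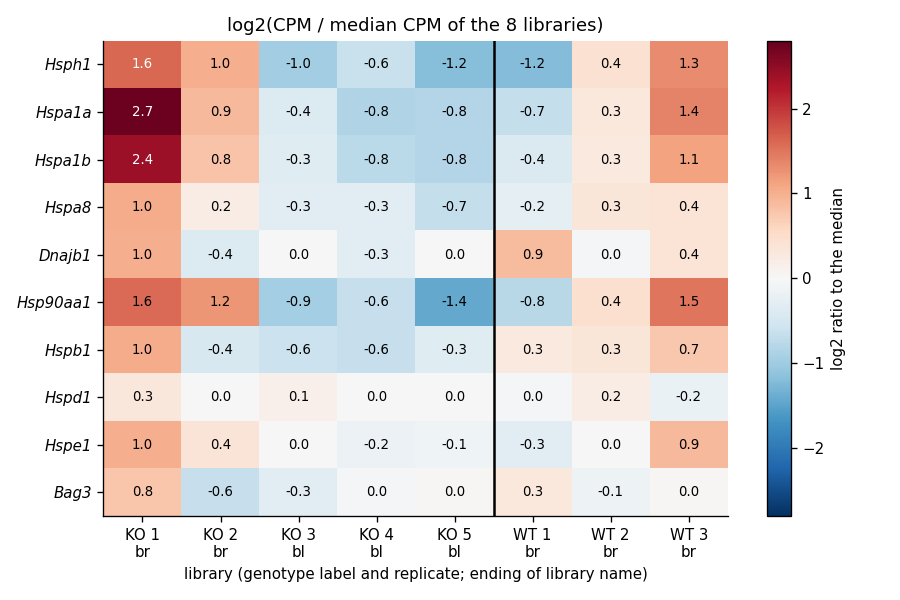
Log2 CPM of each member in each library, minus its median over the 8 libraries, as a colour and a number. The library labelled KO replicate 1 is above the median for all 10 members, while KO replicate 2 is above it for Hsph1, Hspa1a, Hspa1b, Hspa8, Hsp90aa1 and Hspe1 and below it for Dnajb1, Hspb1 and Bag3.

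The windows upstream of the start sites are shown for the members that were high in the same libraries and, as a contrast, for Dnajb1. Of the 10 members, 8 had a promoter entry in the RefSeq table for build GRCm38.p6, and Hspa8 and Hsp90aa1 had none. Each window holds the 250 bases before the start site, 5′ to 3′ on the gene's strand. Capitals mark every match to GAANNTTC or TTCNNGAA, which are pairs of facing GAA units, with either strand read and overlapping matches counted. Hspa1a lies on the minus strand, at chr17:34972157-34972406.
Hspa1a: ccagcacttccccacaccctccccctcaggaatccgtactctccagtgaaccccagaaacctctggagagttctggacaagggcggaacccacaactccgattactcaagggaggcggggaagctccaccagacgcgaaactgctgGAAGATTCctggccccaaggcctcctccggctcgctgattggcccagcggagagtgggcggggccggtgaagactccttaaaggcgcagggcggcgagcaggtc
The window of Hspa1b is on the minus strand, at chr17:34959239-34959488.
Hspa1b: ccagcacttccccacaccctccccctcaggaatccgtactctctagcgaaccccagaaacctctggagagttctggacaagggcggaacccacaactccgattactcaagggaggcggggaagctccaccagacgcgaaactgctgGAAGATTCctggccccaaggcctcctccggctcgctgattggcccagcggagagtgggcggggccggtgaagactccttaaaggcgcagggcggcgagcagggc
The window of Hsph1 is on the minus strand, at chr5:149636337-149636586.
Hsph1: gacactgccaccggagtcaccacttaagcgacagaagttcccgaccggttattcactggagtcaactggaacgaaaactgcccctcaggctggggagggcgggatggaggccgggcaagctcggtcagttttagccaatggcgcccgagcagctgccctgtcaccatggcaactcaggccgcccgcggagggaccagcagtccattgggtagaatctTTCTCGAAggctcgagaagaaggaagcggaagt
The window of Hspe1 is on the plus strand, at chr1:55087898-55088147.
Hspe1: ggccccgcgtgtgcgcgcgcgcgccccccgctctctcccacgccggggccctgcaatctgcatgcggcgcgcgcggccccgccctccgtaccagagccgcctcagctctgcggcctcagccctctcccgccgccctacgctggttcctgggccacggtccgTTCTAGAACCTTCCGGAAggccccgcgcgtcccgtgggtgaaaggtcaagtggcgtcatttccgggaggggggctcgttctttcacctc
The window of Dnajb1 is on the plus strand, at chr8:83607925-83608174.
Dnajb1: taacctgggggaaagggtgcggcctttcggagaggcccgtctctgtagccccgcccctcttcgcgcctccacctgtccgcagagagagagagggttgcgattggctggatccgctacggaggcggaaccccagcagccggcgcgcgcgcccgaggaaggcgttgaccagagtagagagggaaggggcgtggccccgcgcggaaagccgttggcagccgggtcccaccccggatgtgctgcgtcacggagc

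The windows of Hspa1a and Hspa1b are identical at 247 of 250 bases, and each holds 1 match, beginning 104 bases before the start site. The match in Hsph1 begins 33 bases before the start site. Hspe1 holds 3 overlapping matches, beginning 89, 84 and 79 bases before its start site, so that 3 GAA units in a row occur there both as TTCNNGAA followed by NNTTC and as GAANNTTC followed by NNGAA. Hspb1 holds 2 matches, beginning 117 and 97 bases before the start site, in a window on the plus strand at chr5:135887669-135887918. Dnajb1, Bag3 and Hspd1 have no match in these windows. For Hspd1, a second RefSeq start site has the 3-unit match in its own window, which overlaps that of Hspe1. Over all 32851 windows of the same length in the table, 12.8% hold a match to the pair and 0.466% hold 3 units in a row. A match is a run of letters and not a measured binding site.

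Between genotypes, the members' fitted differences lay on both sides of 0, and most were smaller than their standard errors. Hspa1a and Hspa1b had the largest positive log2 fold changes, at 0.48 (SE 0.87) and 0.38 (SE 0.76), and Hspb1 and Dnajb1 the largest negative ones, at -0.50 (SE 0.41) and -0.30 (SE 0.36). For Hsp90aa1 the log2 fold change was -0.18 (SE 0.75), and for the other 5 members it lay between -0.08 and 0.09. The median over the 10 members was -0.03 on the log2 scale, beside 0.16 over all 19239 genes tested. None of the 10 members was called by edgeR's quasi-likelihood test at an adjusted p under 0.05, and none had an unadjusted p under 0.05. DESeq2 and limma voom also called 0 of 10. The same edgeR test called 0.0052% of all genes, and 1209 genes had an unadjusted p under 0.05. For 0 of 10 members did the genotypes separate without overlap, beside 3.24% of all genes with every KO library above every WT library and 1.73% with every KO library below. Within the libraries whose names end in br, with 2 KO and 3 WT libraries, all 10 fitted differences were positive, with 1.55 for Hspa1a, 1.37 for Hspa1b, 0.85 for Hsph1 and 0.77 for Hsp90aa1. Their median was 0.47, beside 0.25 over all genes in the same fit. Without the library labelled KO replicate 1, by contrast, 1 of 10 was positive and the median was -0.59, beside 0.17 over all genes, so the direction of the members as a whole depended on which KO libraries entered. In a limma voom fit with sample quality weights, Hspb1 was called lower and no member higher, with 3.07% of all genes called lower and 3.39% higher. Without KO replicates 1 and 2 and WT replicate 3 the count was again Hspb1 alone, with 5.32% of all genes called lower and 5.25% higher. In that set every KO library ends in bl and every WT library in br. The log2 fold change of Hspb1 was -0.82 with the weights and -0.86 without the 3 libraries, but 0.02 with the ending as a covariate and 0.02 among br libraries alone, where it was not called. Counts summed over Hspa1a and Hspa1b, whose reads may be split, gave 0.41 (SE 0.80).

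**Figure D3:**
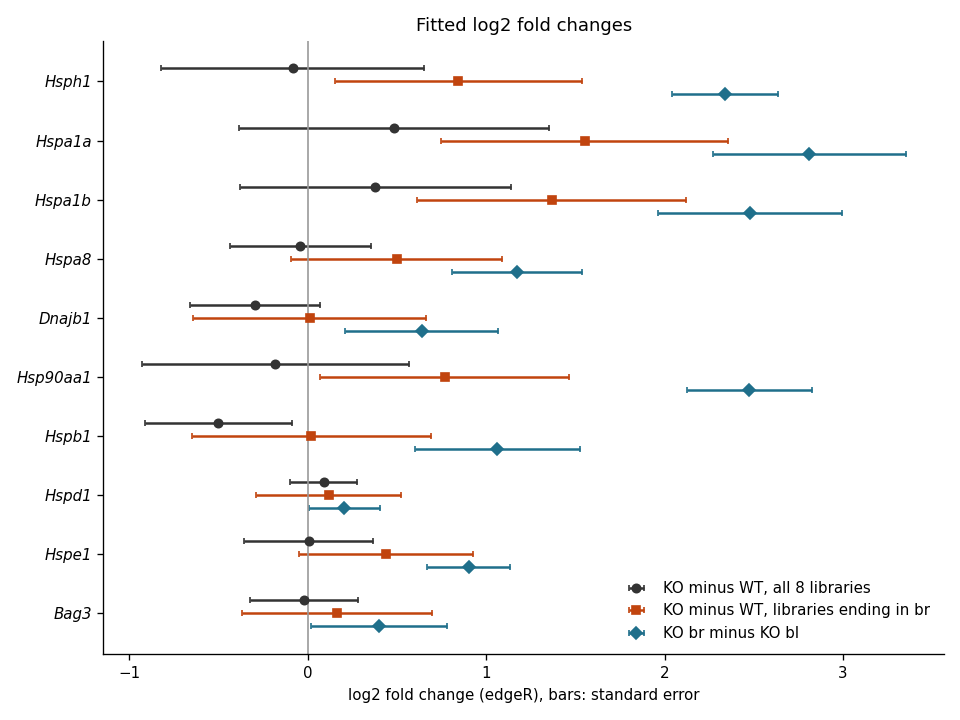
Fitted log2 fold changes of the 10 members with their standard errors, for KO minus WT over all 8 libraries, KO minus WT among libraries ending in br, and KO br minus KO bl. The KO minus WT values over all libraries lie on both sides of 0, from -0.50 for Hspb1 to 0.48 for Hspa1a, while the br minus bl values run from 0.21 for Hspd1 to 2.81 for Hspa1a.

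The KO libraries fell apart by the ending of their names. Hspa1a averaged 1639 CPM in the KO libraries ending in br and 243 ± 45.9 CPM in those ending in bl (SD, n = 3), a log2 difference of 2.81 (SE 0.54). Hspa1b differed by 2.48 (SE 0.51), Hsp90aa1 by 2.48 (SE 0.35) and Hsph1 by 2.34 (SE 0.30) on the same scale. These 4 genes had the largest differences of the members, a grouping made after the values were seen. The inducible Dnajb1 was not among them. Hspa8 differed by 1.17 (SE 0.36), Hspb1 by 1.06 (SE 0.46) and Hspe1 by 0.90 (SE 0.23). Dnajb1, Bag3 and Hspd1 differed least, by 0.64 (SE 0.43), 0.40 (SE 0.38) and 0.21 (SE 0.20). The median of the 10 was 1.12, beside 0.15 over all 19026 genes tested. With library totals in place of TMM factors the members' median was 0.84 and the median of all genes -0.06, with Hspd1 at -0.01.

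Hsph1, Hspa1a, Hspa1b, Hspa8, Hsp90aa1 and Hspe1 were higher in both KO libraries ending in br than in all 3 ending in bl, 6 of 10 members beside 14.9% of all genes. The library labelled KO replicate 1 lay above all 3 bl libraries for 10 of 10 members (36.3% of all genes), and KO replicate 2 for 6 of 10 (38.7%). None of the members was called by edgeR, which called 0% of all genes in this comparison, while 6 of 10 had an unadjusted p under 0.05, as did 3339 genes overall. DESeq2 called 5 of 10 members higher in br and 0 lower, and limma voom called none. The DESeq2 fit had no filter on low counts and called 3.73% of its 43317 genes higher and 0.637% lower. Its shares thus cover many more genes of low count than the 19026 of edgeR. Since these values chose the members, nothing is read from the counts. Without the library labelled KO replicate 1 the difference was 2.21 for Hsp90aa1, 1.94 for Hsph1 and 1.57 for Hspa1a, but 0.09 for Hspb1, -0.28 for Dnajb1 and -0.55 for Bag3. Without KO replicate 2 it was positive for all 10, from 0.29 for Hspd1 to 3.42 for Hspa1a. The members' median was 0.54 without the library labelled KO replicate 1, beside 0.58 over the 25768 genes of that fit. It was 1.53 without KO replicate 2, beside -0.08 over 19299 genes. With KO replicate 2 as the only br library, more genes passed the filter on low counts than the 19026 of both br libraries. The medians over all genes thus cover unlike sets. Each of these fits sets 1 br library against 3 bl libraries, so its spread comes from the bl libraries alone. As a description of CPM, Hsph1, Hsp90aa1, Hspa1a, Hspa1b, Hspa8 and Hspe1 lay above all 3 bl libraries in each KO br library. Hspb1, Dnajb1, Bag3 and Hspd1 did so in the library labelled KO replicate 1 and not in KO replicate 2. Without the library labelled KO replicate 1, Hspa8 differed by 0.63 and Hspe1 by 0.46, beside 0.58 over the 25768 genes of that fit. That median covers the wider set of genes, so it is no like measure of a typical expressed gene.

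A fit with KO br, KO bl and WT as 3 groups gives each KO set against the same 3 WT libraries. Hsp90aa1 was 0.75 (SE 0.55) above WT on the log2 scale in KO br and -1.54 (SE 0.51) from WT in KO bl. Hsph1 stood at 0.83 (SE 0.57) in KO br and at -1.34 (SE 0.52) in KO bl, and Hspa1a at 1.54 (SE 0.64) in KO br and at -1.16 (SE 0.59) in KO bl. Hspb1 stood at 0.01 (SE 0.50) in KO br and at -0.93 (SE 0.45) in KO bl. Both columns share the WT libraries. For Hspa8 and Hspb1 every bl library lay below every WT library, 2 of 10 members beside 12.9% of all genes. Since all WT libraries end in br, genotype and ending cannot be told apart for the bl libraries.

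Within the WT libraries, which share genotype, age and ending, some members also differed widely. Hsph1 in WT replicate 3 was 5.87-fold its level in WT replicate 1, Hsp90aa1 4.84-fold, Hspa1a 4.19-fold and Hspa1b 2.88-fold. For the other 6 members the highest WT library was 1.31-fold the lowest for Hspd1, 1.35-fold for Bag3, 1.39-fold for Hspb1, 1.54-fold for Hspa8, 1.88-fold for Dnajb1 and 2.29-fold for Hspe1. In the 3 KO libraries ending in bl, the highest over the lowest was 1.72-fold for Hsp90aa1 and at most 1.48-fold for the other members. The libraries with the highest Hspa1a and Hspa1b, the library labelled KO replicate 1 and WT replicate 3, were also the 2 with the highest share of Malat1, and the part of Malat1 in the result was not tested. KO replicate 2, which followed them in Hspa1a and Hspa1b, had a Malat1 share of 1.34%, the lowest of all. Fibroblast markers (Col1a1, Col1a2, Col3a1, Dcn, Lum and Pdgfra) summed to 39.7 and 70.8 CPM in KO replicates 1 and 2 and to 3.94 to 33.1 CPM in KO replicates 3 to 5, against 34.1 to 39.3 CPM in WT libraries. Of these 6 markers, 5 had a count in every library and Lum was at 0 in KO replicate 3. Markers of skeletal muscle, adipocytes and endothelium were highest in KO replicate 2, at 27.4, 20.4 and 38.6 CPM, and their part in the members' values was not tested. The summed markers of keratinocytes, adipocytes, T cells, antigen presenting cells and melanocytes overlapped between KO br and KO bl. Those of fibroblasts, skeletal muscle and endothelium were higher in both KO br than in all KO bl libraries. Skeletal muscle summed to 5.3 and 27.4 CPM in KO br and at most 5.07 CPM in KO bl. Endothelium summed to 4.2 and 38.6 CPM in KO br and at most 2.79 CPM in KO bl. Keratinocyte markers were lowest in WT replicate 3 (7854 CPM) and KO replicate 2 (9665 CPM), while KO replicate 1 held 21960 CPM. Their part in the members' values was not tested. In bulk RNA, fewer cells of a type and less RNA per cell cannot be told apart. Reads at genes of olfactory and vomeronasal receptors, which skin is not known to use, reached 3564 CPM in KO replicate 2, and spread evenly per kilobase such a background would make at most 5.95% of any member's count there.

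Ratios between related genes within a library do not depend on library size. The inducible Hsp90aa1 stood per kilobase at 0.403, 0.801, 0.142, 0.172 and 0.101 of the constitutive Hsp90ab1 in KO replicates 1 to 5, and at 0.138, 0.346 and 0.503 of it in WT replicates 1 to 3. Hsph1 over its relative Hspa4 was 1.11, 1.18, 0.203, 0.289 and 0.218 in the KO libraries and 0.180, 0.440 and 0.833 in the WT libraries. In both ratios KO replicate 2 was the highest of all 8 libraries, above the library labelled KO replicate 1, although its CPM values for the inducible genes were lower. KO replicate 2 also had the lowest CPM of the 8 libraries for both denominators, at 664 for Hsp90ab1 and 123 for Hspa4. Hspa1a and Hspa1b together, over Hspa8, stood at 8.88, 4.96, 3.16, 2.32 and 2.90 in the KO libraries and at 2.75, 3.12 and 5.77 in the WT libraries. Hspe1 over Hspd1 was 2.60, 2.03, 1.44, 1.43 and 1.46 in the KO libraries and 1.32, 1.37 and 3.35 in the WT libraries. These 4 ratios were higher in both KO br libraries than in all 3 KO bl libraries and overlapped between genotypes. Dnajb1 over Dnaja1 went the other way in KO libraries, at 8.42 and 4.52 in KO br against 11.6, 8.95 and 12.3 in KO bl. Hspa1b over Hspa1a was 1.82 and 2.15 in KO br, against 2.40, 2.47 and 2.31 in KO bl, with the reservation on shared reads above. Hspb1 over Hspb8 overlapped, at 20.27 and 10.04 in KO br against 11.23, 8.573 and 12.34 in KO bl. Bag3 over Bag1 also overlapped, at 0.6412 and 0.5517 in KO br against 0.4975, 0.5647 and 0.7609 in KO bl. The members were chosen with this contrast known and no share over other gene pairs is given, so the ratios are a description.

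**Figure D4:**
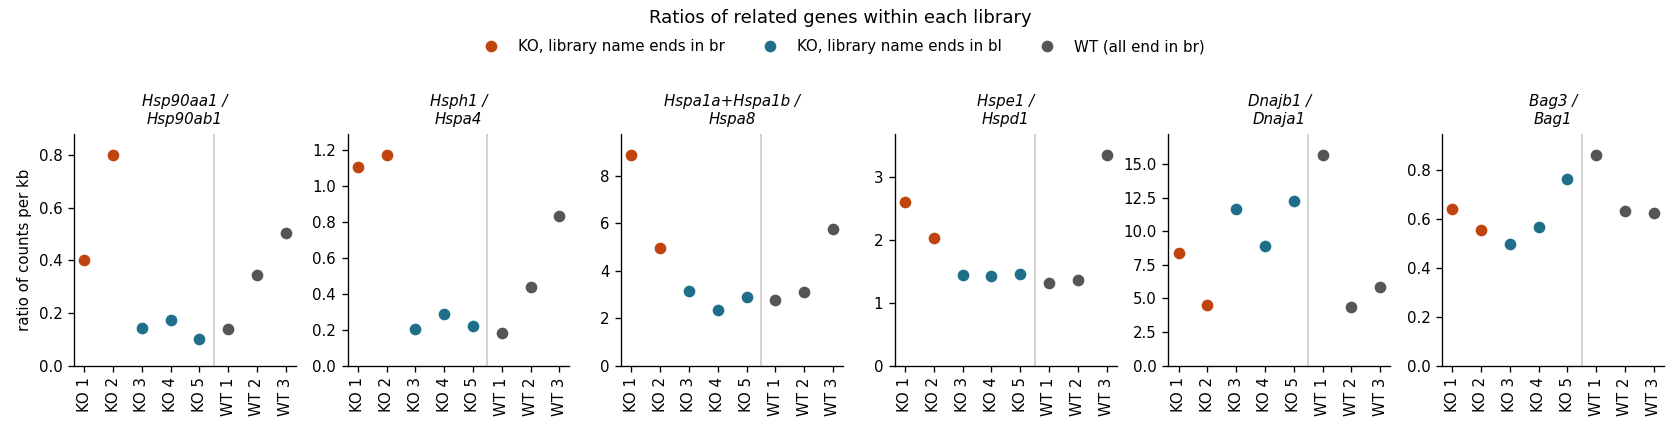
Ratios of counts per kilobase within each library, on linear axes that start at 0, 1 point per library, for inducible members over their relatives. Hsp90aa1 over Hsp90ab1 is 0.403 and 0.801 in the KO br libraries, against 0.101 to 0.172 in the KO bl libraries, while WT libraries span 0.138 to 0.503.

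The other genes of the chaperone network, with the immediate early genes beside them, were followed as 94 genes in 10 lists. Between genotypes 92 of them were tested and 0 passed edgeR's adjusted threshold, and 0 were called by DESeq2 or limma voom. In the edgeR fit 3 had an unadjusted p under 0.05, beside 1209 of all 19239 genes tested. Between KO br and KO bl 91 were tested and 0 passed, with 19 at an unadjusted p under 0.05, beside 3339 of all 19026 genes tested. DESeq2 called 4 of the list genes higher and 2 lower, beside 3.73% and 0.637% of its 43317 genes, which were not filtered on low counts. With limma voom 0 were called. In that comparison 72 of 91 fitted differences were positive, with a median of 0.27, beside 0.15 over all genes. This direction turned with 1 library. The median of the lists was -0.30 without the library labelled KO replicate 1, beside 0.58 over the 25768 genes of that fit. Without KO replicate 2 the median of the lists was 0.51, beside -0.08 over 19299 genes. Each of these fits had 1 br library. With library totals in place of TMM factors the median of the lists was 0.00. Every KO br library lay above every KO bl library for 12 of them and below for 10, beside 14.9% and 20.3% of all genes.

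Among the regulators, Hsf1 itself was at 35.2, 18.1, 34.7, 33.1 and 31.3 CPM in KO replicates 1 to 5 and at 41.2, 35.6 and 22.5 CPM in WT replicates 1 to 3. It was added to the named genes with its values known, as the factor that drives the heat shock response. It was low in KO replicate 2 and WT replicate 3, and its difference between KO br and KO bl was -0.23 (SE 0.28, edgeR adjusted p 0.709). Without the library labelled KO replicate 1, which leaves 1 br library, its difference was -0.86. Hsf2, a related factor, averaged 88.5 ± 38.0 CPM in KO and 134 ± 53.6 CPM in WT libraries (SD, n = 5 and 3). The log2 difference was -0.59 (SE 0.35), and edgeR gave an adjusted p of 0.859. The HSF1-binding protein gene Hsbp1 averaged 33.4 ± 9.51 CPM in KO and 31.8 ± 1.29 CPM in WT libraries (SD), a log2 fold change of 0.08.

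Of the constitutive relatives, Hsp90ab1 averaged 969 ± 404 CPM in KO libraries and 1030 ± 200 CPM in WT libraries (SD), with 834 ± 9.81 CPM in the 3 bl libraries. The HSP110 relative Hspa4 averaged 160 ± 28.4 CPM in KO libraries and 200.2 ± 26.7 CPM in WT libraries (SD), and its br minus bl difference was 0.07 (SE 0.29). Hspa4l, also of the HSP110 family, was at 324 CPM in the library labelled KO replicate 1 and 419.7 CPM in WT replicate 3, against 81.1 to 123 CPM in the other libraries. Its br minus bl difference was -0.57 without the library labelled KO replicate 1 and 1.44 without KO replicate 2, each with 1 br library left. The J protein gene Dnaja1 followed the endings, with 244 and 173 CPM in KO br against 86.6, 91.0 and 84.4 CPM in KO bl. Its log2 difference was 1.34 (SE 0.26, edgeR adjusted p 0.154), and DESeq2 called it. Dnaja2 differed by 0.13 (SE 0.29, edgeR adjusted p 0.851). The small heat shock protein gene Cryab differed by 2.02 (SE 0.84) between br and bl, at an edgeR adjusted p of 0.280. Hspb8, whose product works with BAG3, averaged 127 ± 28.0 CPM in KO and 254 ± 95.8 CPM in WT libraries (SD). Its log2 difference was -0.99 (SE 0.30), edgeR gave an adjusted p of 0.579, and its groups overlapped.

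Among the 18 co-chaperones, Ptges3 and Bag6 had the highest CPM, with br minus bl differences of 0.15 (SE 0.33) and -0.06 (SE 0.37). With KO replicate 2 as the only br library the differences were -0.54 for Ptges3 and -0.90 for Bag6. With the library labelled KO replicate 1 as the only br library, Ptges3 differed by 0.54. The TRiC chaperonin, which folds actin and tubulin, had small differences in its highest genes, with 0.21 (SE 0.30) for Cct2 and 0.08 (SE 0.26) for Cct8, and 7 of 8 genes positive at a list median of 0.15. The mitochondrial HSP70 gene Hspa9 differed by 0.30 (SE 0.25) and its nucleotide exchange factor gene Grpel2 by 0.40 (SE 0.40). Grpel2 differed by -0.56 without the library labelled KO replicate 1. Without KO replicate 2 the differences were 0.46 for Hspa9 and 0.91 for Grpel2.

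In the endoplasmic reticulum list, 18 of 19 fitted differences between KO br and KO bl were positive, with a median of 0.45, beside 0.15 over all genes tested, and 0 genes passed edgeR. Hspa5, the HSP70 of that compartment, was at 1251, 282, 140, 163 and 110 CPM in KO replicates 1 to 5, against 242, 261 and 590.4 CPM in WT replicates 1 to 3. Its br minus bl difference was 2.53 (SE 0.58, edgeR adjusted p 0.158), and DESeq2 called it. The difference was 1.04 without the library labelled KO replicate 1 and 3.21 without KO replicate 2, each fit setting 1 br library against 3 bl libraries. Canx, a lectin chaperone gene of the same compartment, was at 499.6 and 244 CPM in KO br and at 321 to 383 CPM in KO bl, a difference of 0.19 (SE 0.36). Without the library labelled KO replicate 1 edgeR called Canx lower in br, at -0.48, and without KO replicate 2 it called Canx higher, at 0.57. Of the same list, the fit without the library labelled KO replicate 1 also called Pdia3, Dnajc3, Xbp1 and Dnajb11 lower and Manf higher. The fit without KO replicate 2 also called Hsp90b1, Hyou1, Dnajb9, Manf, Xbp1, Atf4 and Ddit3 higher and none lower. These fits called 31.2% and 12.7% of all genes higher, and 16% and 11.2% lower. The direction of the list thus depended on which br library was used. The immediate early genes, markers of acute stimulation that are outside the chaperone network, had 7 of 11 fitted differences positive and a list median of 0.19. Fos and Egr1, the 2 of highest CPM, were lower in both KO br libraries than in all KO bl libraries. Ier3 and Jun, named with their values known, differed by 1.94 (SE 0.53) and 1.23 (SE 0.54). Ier2 and Fosb, named in the same way, differed by -1.14 (SE 0.27) and -1.03 (SE 0.43). Like Fos and Egr1, Ier2 and Fosb were lower in both KO br libraries than in all KO bl libraries. Ier3 was higher in both KO br libraries than in all KO bl libraries. Jun was at 927 CPM in the library labelled KO replicate 1, but at 227 CPM in KO replicate 2, within the 212 to 297 CPM of KO bl. Egr1 was at 662 and 388 CPM in KO br and at 1763, 1112 and 1149 CPM in KO bl, a log2 difference of -1.28 (SE 0.43, edgeR adjusted p 0.216). Fos was at 584 and 357 CPM in KO br and at 1520, 871 and 773 CPM in KO bl, a difference of -1.09 (SE 0.45, edgeR adjusted p 0.281). In WT replicate 3, which was high in Hspa1a, both were at their lowest of the 8 libraries, with 56.6 CPM for Fos and 169.6 CPM for Egr1.

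**Figure D5:**
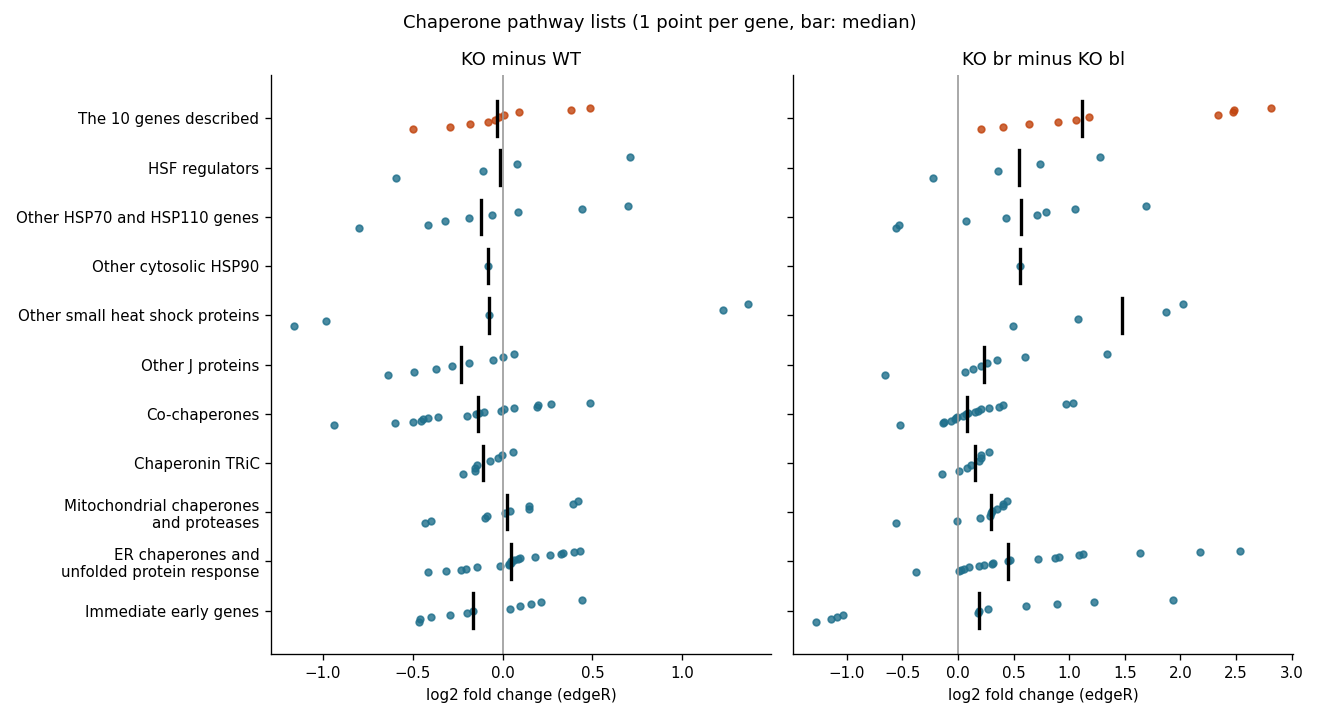
Fitted log2 differences of each gene in the 10 pathway lists and of the members, for KO minus WT and for KO br minus KO bl, with the median of each list marked. The endoplasmic reticulum list has a br minus bl median of 0.45 and the members one of 1.12, and no list gene passed edgeR's adjusted threshold. The direction of Canx and Xbp1 in the endoplasmic reticulum list turned with the KO br library left out.

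The genes whose log2 CPM followed the members' mean profile most closely over the 8 libraries were Rpl19, Rps28, Hspa5, Adm, Rps4x, Zfand2a, Rps29, Dnajb9, Ube2s and Rpl38, among 10062 genes with a mean of at least 5 CPM. Their Pearson r ran from 0.964 for Rpl38 to 0.98 for Rpl19. The points are 8 libraries that differ in depth and composition, so r is a description. Of the 10 genes, 5 encode ribosomal proteins, and Hspa5 and Dnajb9 belong to the endoplasmic reticulum list. Zfand2a, a heat shock and arsenite inducible gene, was at 149, 37.7, 17.0, 17.5 and 19.6 CPM in KO replicates 1 to 5, against 21.9, 33.7 and 87.4 CPM in WT replicates 1 to 3. Adm, the gene of the peptide adrenomedullin, was at 69.3, 4.15, 1.37, 1.43 and 1.88 CPM in the KO libraries, against 4.64, 3.56 and 12.3 CPM in the WT libraries. Without the library labelled KO replicate 1, the 10 genes kept r of 0.879 for Rpl38 to 0.954 for Hspa5, at ranks from 12 for Hspa5 to 109 for Rpl38. The order at the top changed: 0 of the 10 were among the 10 most alike over those 7 libraries, which were Snx10, Slc5a3, Klf11, Dennd5a, Rfk, Swap70, Tnfrsf1b, Zfp954, Zeb1 and Tiparp.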

How the data were processed

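The authors deposited whole-number read counts per Ensembl gene, 1 file per library, without normalization. The tools named in the submitters' processing notes are featureCounts, Subread 1.5.2, STAR 2.5.2b and Trimmomatic 0.36, beside the builds GRCh38 and GRCm38. Strandedness and the handling of multi-mapping reads are left unsaid in the sources used here. Of 49315 genes, 48970 were given a symbol and 49056 were in GENCODE M21 (GRCm38). Coordinates of the printed windows are on GRCm38.p6, from RefSeq.

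Genotypes and name endings were taken from the sample labels, and replicate numbers only name libraries in order of deposition. Genes were tested on all rows with edgeR 4.0.16 (quasi-likelihood, robust, TMM, filterByExpr, R 4.3.3) and Benjamini-Hochberg adjusted p under 0.05. All 10 members passed the filter on low counts in both comparisons. CPM uses TMM-scaled library sizes, and log2 CPM a prior count of 2. DESeq2 1.42.0, limma 3.58.1 (voom, with and without sample quality weights), other normalizations, no filter, name ending as a covariate, br libraries alone and each library left out were alternatives, and the tests were checked on simulated counts. The biological coefficient of variation was 63.7% in the fit of both genotypes and 49.9% in that of the KO libraries.

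The members and lists were chosen with earlier results of these data known. Genes named by rule are the members, the 2 genes of highest mean CPM in each list (where none passed), the 10 most alike in profile, and Tgfa. Other list genes, such as Hsf1, Ier3, Jun, Manf and Dnajb4, were named with their values known. Counting error alone would understate the spread between libraries, so no intervals are given for single counts.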

Additional observations from a re-analysis of the deposited data

Results flagged for a closer look

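Within the 5 KO libraries, the library labelled KO replicate 1 stood far above the other 4 for 10 of 30 genes checked, as judged by its gap to the nearest library divided by the range of the group. For normally distributed values chance alone flags about 1 in 20 such groups, a rate that need not hold for skewed CPM. The 30 checks share the same libraries and include the 10 members, chosen with their values known. The count is therefore a description and not a test. Among the members this ratio was 0.787 for Hspa1a, 0.751 for Hspa1b, 0.8 for Dnajb1 and 0.891 for Hspb1. Hspb1 was at 1859 CPM there and at 577 to 717 CPM in KO replicates 2 to 5. Among the other chaperone genes the ratio was 0.878 for Hsf2, 0.723 for Hsbp1, 0.827 for Hspa4l, 0.824 for Hsp90ab1, 0.765 for Hspa9 and 0.849 for Hspa5. Hsph1 and Hsp90aa1 were not among them, since KO replicate 2 was high in both.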

How the results depend on the processing

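Genes called between genotypes numbered 1 in the edgeR fit, 137 with DESeq2, 0 with limma voom, 0 with RLE size factors, 9 without the filter on low counts, 0 among br libraries alone, 1243 with sample quality weights, and 1883 without KO replicates 1 and 2 and WT replicate 3. Leaving out 1 library gave 0 to 1 genes. For the 94 genes of the pathway lists, which include the immediate early genes, these calls were 0, with 7 under the weights and 10 without the 3 libraries, and 0 with any 1 library left out. The members' median ranged from -0.586 (without KO replicate 1) to 0.246 with 1 library left out. Between KO br and KO bl 0 genes were called by edgeR, 1893 by DESeq2, 2383 without the filter and 1 in the fit of 3 groups. The pathway lists had 0, with 6 by DESeq2 (Egr1, Ier2 and Ier3 among them) and 9 without the filter (Ier2 and Ier3 among them). Leaving out 1 library gave 0 to 12160 genes and 0 to 40 list genes: dropping KO replicate 1 gave 12160 and 31 (6 higher, 25 lower), dropping KO replicate 2 gave 4620 and 40 (37 higher, 3 lower), and dropping KO replicate 5 gave 2 genes. The members' median ran from 0.544 to 1.53, and members without overlap from 6 to 10 (10 without KO replicate 2, a count added after seeing the data). Dropping KO replicate 1 or 2 leaves 1 br library, so those counts rest on the spread of the bl libraries alone. They assume that the remaining br library varies like the bl libraries. Of 172 values of single members between genotypes, 171 moved by less than the replicate spread, the exception being Hspd1, and of 112 between endings 101 did. This spread is the pooled SD of single libraries within the groups compared, a wide yardstick for the variable members. For Hsph1 between genotypes it was 1.27, and values from -0.768 to 0.854 counted as unmoved. The count therefore does not show that the direction of a member held. The causes of these differences were not tested. No paired analysis was possible because the labels carry no replicate numbers that are shared between the groups.

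Limits are the small number of libraries, the confounding of the bl ending with genotype, and the Tgfa level of the library labelled KO replicate 1. KO replicate 2 had the lowest depth, with Bag3 at 197 reads and Hspd1 at 224.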

Other observations

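In the fit with sample quality weights, which gave the library labelled KO replicate 1 a weight of 0.28, KO replicate 2 one of 0.37 and WT replicate 3 one of 0.34, 7 genes of the pathway lists were lower in KO by limma and 0 were higher. They were the chaperone and co-chaperone genes Cryab, Fkbp5, Hspb8, Hspa2, Dnaja1 and Dnajb4, and Atf4, a transcription factor gene of the unfolded protein response. With the same 3 libraries left out, edgeR called 10 lower, of which Hspb8, Hspa2, Dnaja1, Atf4 and Dnajb4 were also in the weighted list. These genes were named after the values of those fits were seen. Hspb8, which encodes a small heat shock protein partner of BAG3, was at 174, 126, 101, 127 and 110 CPM in KO replicates 1 to 5, against 309.8, 309 and 144 CPM in WT replicates 1 to 3. Its log2 fold change was -0.99 over all libraries, -1.33 with weights (limma adjusted p 0.0044), -1.49 without the 3 libraries (edgeR adjusted p 5.66e-04) and -0.81 among br libraries alone (edgeR adjusted p 0.993). Dnajb4, a J protein gene, was at 104, 55.5, 64.8, 68.5 and 77.3 CPM in the KO libraries and at 119, 110.4 and 117 CPM in the WT libraries, the groups not overlapping. Of the 92 list genes tested, 2 had every KO library below every WT library, beside 1.73% of all genes. Every KO library was above for 0, beside 3.24% of all genes. For Dnajb4 nothing is read from the lack of overlap. The log2 fold change of Dnajb4 was -0.64 over all libraries (edgeR adjusted p 0.677) and -0.55 among br libraries alone. Dnaja1, by contrast, was at -0.49 over all libraries, -1.03 without the 3 libraries and 0.10 among br libraries alone, so that its direction turned with the libraries used. The weighted fit called 3.07% of all genes lower in KO and the fit without the 3 libraries 5.32%. With the same 3 libraries left out, every KO library ends in bl and every WT library in br, so that genotype and ending cannot be told apart there. Of the 10 members, each of these fits called 1 lower, Hspb1, whose log2 fold change was 0.02 among br libraries alone and 0.02 with the ending as a covariate.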
